A study of Homo sapiens with 6 samples.

Results

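The genes described here are the small nucleolar RNA (snoRNA) and small Cajal body RNA (scaRNA) genes that had a value above 0 in all 6 RNA-Seq libraries of the study. Symbols starting with SNORD, SNORA or SCARNA were taken, host genes with symbols ending in HG were left out, and a gene was kept when its FPKM (fragments per kilobase of transcript per 1000000 mapped reads) was above 0 in every sample. This rule gave 67 of the 386 listed snoRNA and scaRNA symbols, and of the 23284 gene symbols in all. The genes were thus chosen by their FPKM values, so the detection of these genes in every sample is how they were chosen and not a result.

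The cells were GM12873, a human B-lymphoblastoid cell line made by transformation of B lymphocytes with Epstein-Barr virus. The 3 control samples were washed cells taken straight into trizol, and the 3 lyophilized samples were freeze-dried in trehalose and kept as a dry powder at room temperature for 2 weeks before they were taken into trizol. Both groups came from the same line grown in the same medium, and each control sample was paired by the labels with 1 lyophilized sample. Libraries were made by poly(A) selection with a kit that does not keep strand, and 75-base reads were collected. All 8 B cell markers examined were present, from 18.5 FPKM for PAX5 in its lowest sample to 2864 FPKM for CD74 in its highest, while of 20 markers of other cell types NKG7 reached 7.74, ITGAM 2.64, KRT18 1.45 and CD4 1.11 FPKM and the others stayed below 1.

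SnoRNAs guide chemical modification of other RNAs in the nucleolus. Box C/D snoRNAs (SNORD) pair with ribosomal RNA and direct fibrillarin to methylate the ribose, and box H/ACA snoRNAs (SNORA) direct dyskerin to turn uridine into pseudouridine. Small Cajal body RNAs (SCARNA) do the same for the spliceosomal RNAs and may carry either box or both. In human cells most of them are cut out of the introns of host genes, many of which encode ribosomal proteins or translation factors, and the mature RNAs carry no poly(A) tail. In bulk samples such as these, a lower level per cell and a smaller share of cells carrying the RNA cannot be told apart.

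The box C/D genes that lead by FPKM are shown with the box TGATGA (C box, searched in the first 25 bases) and CTGA (D box, searched in the last 25 bases) in capitals, on the strand of the gene and from its 5′ to its 3′ end. SNORD47 lies at chr1:173833507-173833583 and SNORD76 at chr1:173835773-173835853, both on the minus strand within GAS5, and SNORD22 lies at chr11:62620382-62620507 on the minus strand within SNHG1 (hg19).

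SNORD47: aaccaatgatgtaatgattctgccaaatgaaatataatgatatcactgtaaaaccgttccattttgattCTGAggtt
SNORD76: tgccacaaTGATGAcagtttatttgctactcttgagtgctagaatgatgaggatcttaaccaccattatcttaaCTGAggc
SNORD22: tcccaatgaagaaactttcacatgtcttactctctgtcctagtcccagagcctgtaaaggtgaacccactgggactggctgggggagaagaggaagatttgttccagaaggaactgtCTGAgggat

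The H/ACA and Cajal body genes are shown with the last ACA found in the final 8 bases in capitals. In SCARNA22 another ACA stands directly before the marked one, and which of them is the box was not tested. SNORA40 (chr11:93468276-93468402, minus strand, in TAF1D) and SNORA70 (chrX:153628622-153628756, plus strand, in RPL10) had the highest FPKM of their class. SNORA12 (chr10:101996913-101997059, minus strand, in an intron of CWF19L1) and SNORA9 (chr7:45024977-45025109, minus strand, in SNHG15) are also shown, since their values in both groups are described further on. SCARNA22 (chr4:1976363-1976487, plus strand, in WHSC1) and SCARNA16 (chr17:75085389-75085575, plus strand, in LINC00338) lead the Cajal body class.

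SNORA40: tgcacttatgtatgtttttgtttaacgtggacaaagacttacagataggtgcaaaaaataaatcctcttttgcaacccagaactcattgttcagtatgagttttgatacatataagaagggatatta
SNORA70: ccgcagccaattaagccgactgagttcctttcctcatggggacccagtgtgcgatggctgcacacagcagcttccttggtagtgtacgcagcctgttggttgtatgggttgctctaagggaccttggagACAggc
SNORA12: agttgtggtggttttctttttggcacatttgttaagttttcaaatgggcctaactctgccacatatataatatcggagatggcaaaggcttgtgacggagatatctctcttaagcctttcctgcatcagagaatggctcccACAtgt
SNORA9: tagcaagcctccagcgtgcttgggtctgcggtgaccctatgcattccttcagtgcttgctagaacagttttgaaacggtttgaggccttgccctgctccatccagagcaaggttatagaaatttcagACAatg
SCARNA22: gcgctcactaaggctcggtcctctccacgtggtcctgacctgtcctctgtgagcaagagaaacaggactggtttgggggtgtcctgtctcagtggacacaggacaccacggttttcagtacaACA
SCARNA16: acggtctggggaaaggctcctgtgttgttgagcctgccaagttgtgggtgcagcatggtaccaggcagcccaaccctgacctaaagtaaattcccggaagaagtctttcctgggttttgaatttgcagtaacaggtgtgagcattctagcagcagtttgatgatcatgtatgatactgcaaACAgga

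The D box letters CTGA were found in 17 of 17 detected box C/D genes and in 231 of the 240 others of that class, while the C box letters TGATGA were found in 8 of 17 and in 176 of 240. ACA stood near the end of 34 of 39 detected H/ACA genes and of 62 of 66 others. In the Cajal body class it stood there in 5 of 11 detected genes and in 10 of 12 others. These 12 are the ones with a known strand among 13 others. SNORD47 and SNORA40 are examples that lack the searched C box and ACA. These are matches of letters in a window, and a gene without a match may carry a variant of the box. The C and D boxes were not searched in the Cajal body genes, which may carry either kind of box or both.

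The classes were detected to very different extents. Of the box C/D symbols, 17 of 257 (6.61%) were above 0 in all 6 samples, against 39 of 105 box H/ACA symbols (37.1%) and 11 of 24 Cajal body symbols (45.8%), and against 62.4% of all gene symbols. A total of 200 of the 386 symbols were at 0 in every sample, and 185 of these were box C/D genes. Between 100 and 136 of the 386 were detected in a given sample, 100, 130 and 130 in controls 1 to 3 and 121, 136 and 123 in their lyophilized partners.

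Gene length accompanied these differences between the classes. A read of 75 bases can lie wholly inside a gene only when the gene is at least that long, and 99 box C/D symbols are shorter. SNORD65 was the only one of these 99 with a value above 0, in 2 samples. Among the 287 longer genes, 20 have no 75-base stretch that occurs once in the genome, and 8 of those were seen in at least 1 sample but none in all 6. The remaining 267 genes include 177 seen in at least 1 sample and all 67 detected ones. Within these 267, the share detected in all 6 samples was 12.1% for box C/D, 38.2% for H/ACA and 45.8% for Cajal body genes. The order of the classes thus stayed the same, but length still differed, with medians of 86, 134 and 155 bases.

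**Figure D1:**
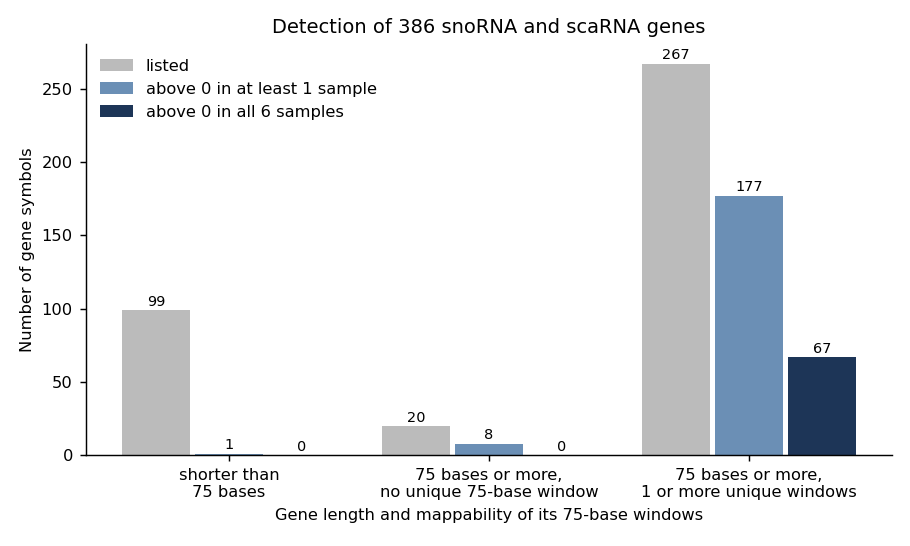
Number of snoRNA and scaRNA symbols (y axis) by gene length and by whether any 75-base stretch is unique in the genome (x axis), with bars for the symbols listed, those above 0 in at least 1 sample and those above 0 in all 6. Only 1 of 99 symbols shorter than the read was seen at all, against 177 of 267 longer symbols with a unique stretch.

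Few genes of the well known box C/D families were detected in these libraries. GAS5 carries 10 box C/D genes in its introns, of which SNORD47 and SNORD76 were detected throughout, SNORD79 was at 0 in control 1 only, and 7 were at 0 in every sample, each shorter than the read. SNHG1 carries 8, of which SNORD22, the longest at 126 bases, was detected throughout and 5 were at 0 in every sample. None of the 4 genes in RPL13A (SNORD32A to SNORD35A) was detected in all 6 samples. Of 9 box C/D RNAs often used to normalize small RNA qPCR, SNORD47 alone was detected, and the other 8, among them SNORD44, SNORD48 and SNORD95, were at 0 in all 6 samples, 6 of them being shorter than the read.

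The genes that were detected lie inside longer exons more often than the genes that were not. Of the 67, 49 (73.1%) lie wholly inside an exon of another annotated transcript, against 15 of 90 (16.7%) symbols that have a unique stretch and were never seen, and 41 of 110 (37.3%) seen in 1 to 5 samples. The median lengths of these 3 sets were 133, 82 and 130 bases, so length differs along with position. Reads from a small RNA and from an exon that covers it cannot be told apart in these files, and the part of either in the values was not tested. SNORA12 and SNORD17 lie in introns of their hosts, outside any exon, whereas SNORD22, SNORA64, SNORA9 and SCARNA13 lie wholly within exons.

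The threshold separated some genes narrowly. SNORD86, SNORA7A, SNORA17 and SNORA43 passed with values below 0.01 FPKM in at least 1 sample. SNORD86, within NOP56, was below 0.01 FPKM in every sample, and SNORA7A was above it in lyophilized sample 2 alone, at 20.0 FPKM. On the other side, 25 symbols were at 0 in 1 sample, led by SNORD79 with 0, 152 and 210 FPKM in the controls and 147, 114 and 91.2 FPKM after lyophilization.

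FPKM levels ranged over several orders of magnitude, and box C/D genes stood at the top. SNORD47, which guides methylation of large subunit ribosomal RNA, had 177, 933 and 673 FPKM in controls 1 to 3 and 452, 979 and 1177 FPKM in their lyophilized partners. SNORD76, its neighbour in GAS5, had 143, 658 and 421 FPKM in the controls and 257, 607 and 456 FPKM after lyophilization. Both were lowest in control 1, and the groups overlapped.

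SNORD22 (U22), a box C/D RNA needed for maturation of small subunit ribosomal RNA rather than for a modification, had 273, 459 and 390 FPKM in the controls and 225, 372 and 321 FPKM after lyophilization. SNORD45A had 185, 481 and 109 FPKM against 95.3, 393 and 236 FPKM, with no common direction in the 3 pairs. SNORD58C had 187, 99.9 and 277 FPKM in the controls and 72.6, 99.8 and 90.0 FPKM after lyophilization. Its groups did not overlap, but pair 2 had almost the same value in both samples.

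Among the box H/ACA genes, SNORA40 had 114, 319 and 257 FPKM in the controls and 251, 355 and 238 FPKM after lyophilization. SNORA70 (U70) had 162, 386 and 176 FPKM against 185, 262 and 197 FPKM. SNORA61 had 197, 276 and 153 FPKM against 97.1, 257 and 143 FPKM. In each of the 3 genes the groups overlapped.

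SNORA67 had 186 ± 39.3 FPKM in the controls and 184 ± 110 FPKM after lyophilization (SD, n = 3 each). SNORA63 had 127 ± 23.0 and 145 ± 32.4 FPKM (SD, n = 3 each). Over the class, the mean FPKM of a gene ran from 2.03 for SNORA53 to 256 for SNORA40, with a median of 59.2.

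The Cajal body genes had lower FPKM values, with a median of 9.90 over the 11 genes. SCARNA22 (ACA11) was the highest of them, with 107, 106 and 128 FPKM in the controls and 161, 130 and 165 FPKM after lyophilization. SCARNA16, a guide for U1 RNA, had 91.4, 73.0 and 83.5 FPKM against 128, 97.4 and 65.7 FPKM. SCARNA9, which guides methylation of U2 RNA, had 39.7, 67.1 and 61.1 FPKM in the controls and 110, 82.6 and 67.4 FPKM after lyophilization. The groups did not overlap for SCARNA22 and SCARNA9 and overlapped for SCARNA16.

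**Figure D2:**
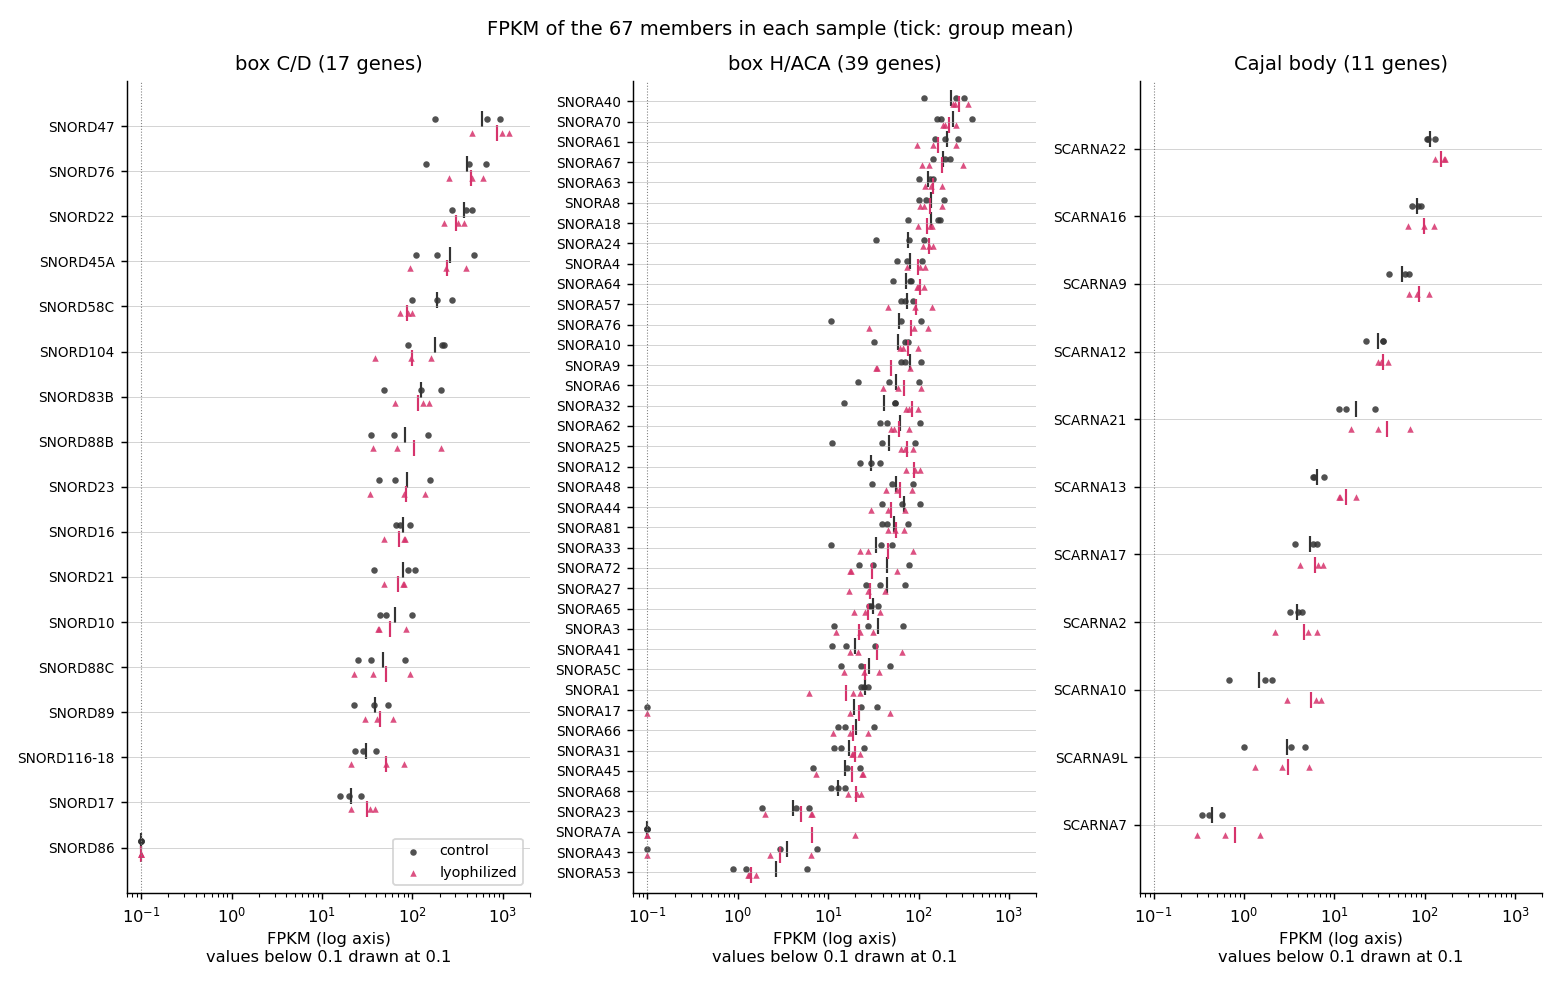
FPKM on a log axis (x) of each of the 67 genes (y) in the 3 control samples (dots) and 3 lyophilized samples (triangles), with a tick at each group mean and values below 0.1 drawn at 0.1. Box C/D genes reach 1177 FPKM, the Cajal body genes stay at or below 165 FPKM, and in most genes the symbols of the 2 groups lie among each other.

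Together the 67 genes held between 0.766% and 1.60% of the summed FPKM of a sample. The 17 box C/D genes held 0.339%, 0.811% and 0.539% in controls 1 to 3 and 0.311%, 0.705% and 0.633% in their lyophilized partners. The 39 H/ACA genes held 0.366%, 0.724% and 0.527% against 0.436%, 0.686% and 0.548%. In both classes pair 1 was lowest and pair 2 highest, and the spread between pairs was larger than the difference within a pair. The share of the 11 Cajal body genes was 0.0609%, 0.0683% and 0.0737% in the controls and 0.105%, 0.0785% and 0.0810% after lyophilization, and every pair was higher after lyophilization.

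The reads behind these values were few. FPKM values of the short genes fell on a grid, so that the number of reads could be recovered as whole numbers, within 0.02 reads, for 370 of 402 values (92.0%) and for 61 of the 67 genes in all 6 samples. The grid put the libraries at about 13953000, 19205000 and 23083000 mapped reads for controls 1 to 3 and at 26429000, 25632000 and 21315000 for their lyophilized partners, so that control 1 was the shallowest. A gene had between 1 and 433 reads in a sample, with a median of 8. Of the 366 values of these 61 genes, 161 rested on 1 to 5 reads and 29 on a single read.

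A read weighed more in a short gene, since the FPKM value of 1 read fell steeply with gene length. In control 1, 1 read was worth 88.3 FPKM in SNORD47, at 77 bases the shortest of the 61 genes, and 0.335 FPKM in the longest Cajal body gene, at 421 bases. The 933 FPKM of SNORD47 in control 2 were 15 reads, and its 177 FPKM in control 1 were 2 reads. SCARNA9, 353 bases long, had 82, 191 and 209 reads in the controls and 433, 314 and 213 reads after lyophilization. It held 24.5% of the 5890 reads of the 61 genes but stood at place 25 by FPKM.

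The order of the classes therefore depended on the scale. By mean FPKM, 6 of the 10 highest genes were box C/D, 4 were H/ACA and 0 were Cajal body genes. By reads, the 10 highest held 2 box C/D, 4 H/ACA and 4 Cajal body genes, and SCARNA9, SCARNA12 and SCARNA16 came first with 1442, 317 and 271 reads over the 6 samples. Per 1000000 mapped reads, the 16 box C/D genes had 4.80, 9.16 and 6.32 reads in the controls and 4.54, 8.82 and 7.37 reads after lyophilization. The 10 Cajal body genes had 12.5, 17.9 and 17.0 reads per 1000000 in the controls and 27.2, 21.3 and 18.2 after lyophilization, higher in each pair. Much of this was 1 gene, as SCARNA9 held 82, 191 and 209 of the 175, 344 and 392 class reads in controls 1 to 3. After lyophilization SCARNA9 held 433, 314 and 213 of 718, 546 and 388.

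**Figure D3:**
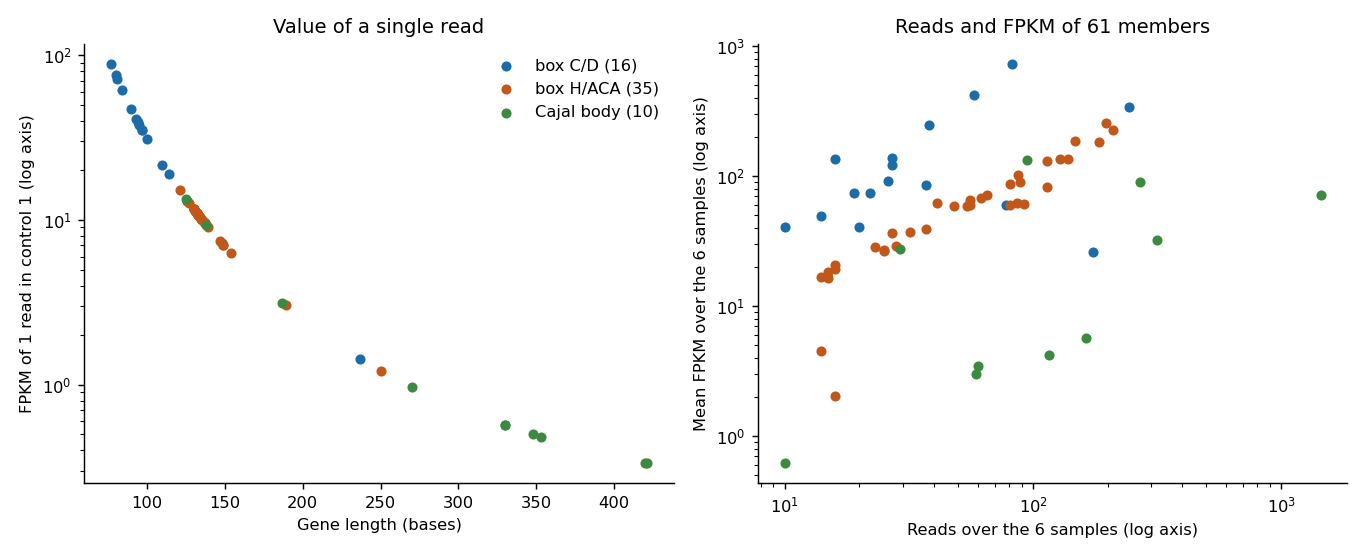
Left, FPKM value of 1 read in control 1 (y, log axis) against gene length in bases (x) for the 61 genes with whole reads, coloured by class; right, mean FPKM (y) against reads over the 6 samples (x), both on log axes. A read is worth 88.3 FPKM in the shortest gene and 0.335 in the longest, and SCARNA9, the point farthest right with 1442 reads, lies below many genes with fewer reads in FPKM.

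The comparison of lyophilized with control cells was made with limma on log2(FPKM + 0.1) over all 11430 symbols whose mean FPKM exceeded 1 in either group. Differences are given as lyophilized minus control on that log2 scale, on which the change of a weakly expressed gene is compressed. Of the 67 genes, 65 were tested, and SNORD86 and SCARNA7 were too low. SNORA7A entered through the lyophilized group alone, and the other 64 through both groups.

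SNORA12 was the only gene of the 65 past an adjusted p of 0.05, against 0.464% of all symbols tested (0.035% in the direction of SNORA12). At an unadjusted p below 0.05 there were 9 of the 65, against 14% of all symbols. It had 29.6, 37.4 and 22.2 FPKM in controls 1 to 3 and 105, 92.1 and 72.2 FPKM in their lyophilized partners. All lyophilized samples were above all control samples, and the differences in pairs 1 to 3 were 1.82, 1.30 and 1.70. The log2 difference was 1.60 ± 0.22 (SE) with an adjusted p of 0.0497 by limma with Benjamini-Hochberg adjustment. It rested on 4, 7 and 5 reads in the controls and 27, 23 and 15 reads after lyophilization, and its adjusted p rose to between 0.101 and 0.246 when any of the 6 samples was left out.

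CWF19L1, the protein-coding gene whose intron holds SNORA12, did not show this difference. It had 12.4, 17.3 and 14.0 FPKM in the controls and 12.3, 17.4 and 15.3 FPKM after lyophilization, a log2 difference of 0.04 ± 0.18 (SE).

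With the pair as a block, 10 of the 65 genes passed, 7 higher and 3 lower in the lyophilized samples, against 16.5% of all symbols tested (6.34% higher and 10.2% lower). The 10 are 15.4% of the 65, close to the 16.5% of all symbols, so their number does not set these genes apart. With the block and without a variance trend, 2 of the 65 passed, so most of the calls named here were not made in that setting. The share of all symbols that passed without the trend was not counted, and the cause of the change in number was not tested. The 7 higher in the fit with the block and the trend were SNORA12, SCARNA10, SCARNA13, SNORA68, SNORD17, SNORA64 and SCARNA22. The 3 lower were SNORA9, SNORA72 and SNORD22. All except SNORA12 were past the threshold only with the block.

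SCARNA10 (U85), a guide for both kinds of modification in U5 RNA, had 1.70, 2.06 and 0.684 FPKM in the controls and 2.99, 7.09 and 6.30 FPKM after lyophilization. Its groups did not overlap, and its log2 difference was 1.85 ± 0.41 (SE, block; adjusted p = 0.0413, limma). SCARNA13 had 5.77, 5.88 and 7.76 FPKM against 17.2, 11.7 and 11.1 FPKM, a difference of 1.02 ± 0.19 (SE, block; adjusted p = 0.0307, limma). SCARNA22 differed by 0.41 ± 0.07 (SE, block; adjusted p = 0.0236, limma), on 8, 11 and 16 reads in the controls and 23, 18 and 19 reads after lyophilization.

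SNORD17, at 237 bases the longest detected box C/D gene, had 15.8, 27.0 and 19.9 FPKM in the controls and 21.2, 39.0 and 33.7 FPKM after lyophilization. It was higher in all 3 pairs, while the groups overlapped, and its difference was 0.57 ± 0.08 (SE, block; adjusted p = 0.0192, limma). SNORA64 (U64), within RPS2, had 51.9, 82.3 and 80.9 FPKM against 97.8, 95.3 and 115 FPKM, a difference of 0.54 ± 0.13 (SE, block; adjusted p = 0.0496, limma). SNORA68 (U68) had 10.7, 15.4 and 12.8 FPKM against 16.8, 23.0 and 20.8 FPKM, a difference of 0.64 ± 0.06 (SE, block; adjusted p = 0.0105, limma).

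The 3 genes that fell in the fit with the block had overlapping groups. SNORA9 had 64.0, 108 and 70.3 FPKM in the controls and 33.5, 80.6 and 34.6 FPKM after lyophilization, a difference of -0.79 ± 0.12 (SE, block; adjusted p = 0.0222, limma). SNORD22 differed by -0.28, -0.30 and -0.28 in pairs 1 to 3, with a mean of -0.29 ± 0.03 (SE, block; adjusted p = 0.0158, limma). SNORA72 had 21.9, 31.6 and 78.9 FPKM against 17.2, 17.8 and 56.9 FPKM, a difference of -0.55 ± 0.10 (SE, block; adjusted p = 0.0283, limma).

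The errors of the fit with the block were often smaller than a counting error computed from the reads. This counting error of a log2 difference averaged over 3 pairs was computed for the 60 tested genes with whole reads. It treats each read as independent and is an approximation that is poor at few reads. The rule had also left out genes at 0 in any sample, which narrows the spread at few reads. The comparison is thus partly set by the choice of genes. The SE with the block lay below this counting error in 52 of the 60 genes, and the SE without the block in 34. SNORA68 is the plainest case, with 1, 2 and 2 reads in the controls and 3, 4 and 3 reads after lyophilization, a counting error of 0.82 and an SE of 0.06 with the block. All 9 of the 10 genes that have whole reads had an SE with the block below the counting error, and for 3 of these, SNORA12, SCARNA10 and SNORD17, the difference exceeded 2 counting errors (0.41, 0.53 and 0.24). SCARNA9 and SNORA24 also differed by more than 2 counting errors, by 0.64 and 0.94, but did not pass with or without the block (adjusted p from 0.092 to 0.377, limma).

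Genes with more reads had a smaller error. In the fit without the block the median SE was 0.28 for the 13 genes with 10 or more reads in every sample and 0.47 for the 18 tested genes with fewer than 10 in every sample, against 0.16 for all 11430 symbols. The median absolute difference was 0.31 for the 65 genes and 0.18 for all symbols.

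By class, the median log2 difference was -0.01 for the 16 box C/D genes tested, 0.19 for the 39 H/ACA genes and 0.30 for the 10 Cajal body genes, against 0.04 for all symbols. All 10 Cajal body genes had a difference above 0, as had 23 of the 39 H/ACA genes, 8 of the 16 box C/D genes and 56.4% of all symbols. The H/ACA count includes SNORA7A, which entered through the lyophilized group alone. It also includes SNORA17, at 0.014 ± 2.97 (SE, without the block), with values below 0.01 FPKM in control 3 and lyophilized sample 1. Higher in all 3 pairs were 5 Cajal body, 10 H/ACA and 3 box C/D genes, and lower in all 3 were 0, 4 and 3. Of all 11430 symbols, 3746 were higher and 3226 lower in all 3 pairs. The pair medians were 0.81, 0.30 and 0.25 for the Cajal body genes, 0.20, 0.21 and 0.11 for the H/ACA genes and -0.28, -0.25 and 0.11 for the box C/D genes. When each sample was left out in turn, the Cajal body median ran from 0.32 to 0.54, while the H/ACA median ran from -0.04, without lyophilized replicate 2, to 0.39, without control replicate 2, and the box C/D median from -0.27 to 0.48 without the same samples. The Cajal body median fell to 0.18 when only genes with 5 or more reads in every sample were kept, and to 0.22 without pair 1.

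**Figure D4:**
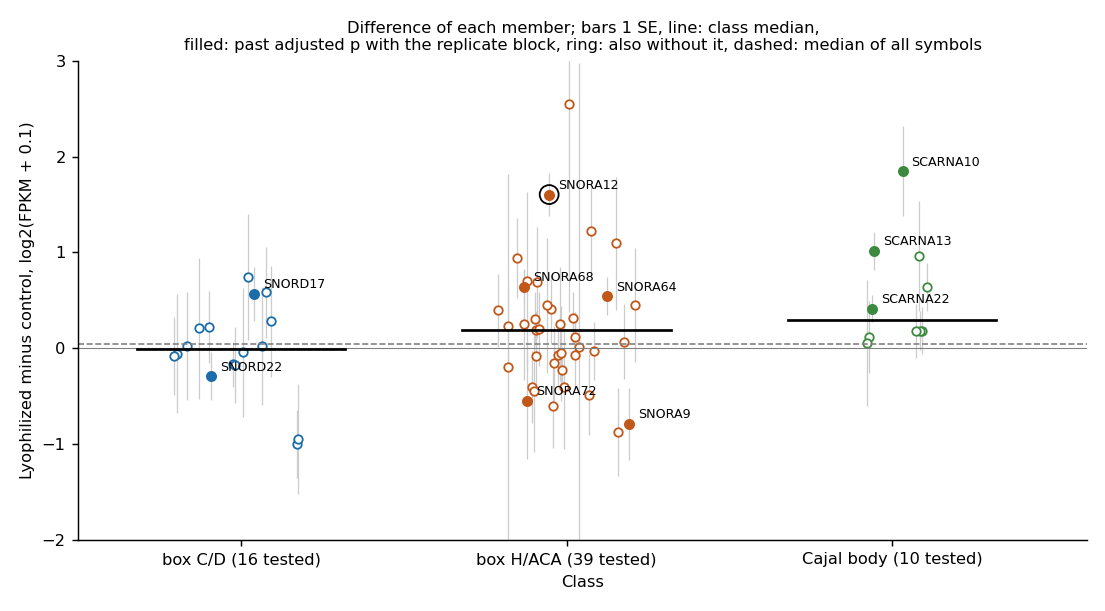
Log2 difference, lyophilized minus control on the log2(FPKM + 0.1) scale (y), of the 65 genes tested by class (x), with bars of 1 SE, class medians as lines and the median of all symbols dashed. Filled points are the 10 genes past an adjusted p of 0.05 with the block and the ring marks SNORA12, also past it without; the Cajal body points all lie above 0, and bars of 3 H/ACA genes with values near 0 run past the frame.

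Groups that did not overlap were found for 8 genes higher and 2 genes lower in the lyophilized samples, of the 65 tested. Among all symbols tested this held for 9.53% higher and 12.3% lower. Besides SNORA12, SNORA64, SNORA68, SCARNA9, SCARNA10, SCARNA13 and SCARNA22, the higher set held SNORA32, with 15.1, 54.4 and 54.3 FPKM in the controls and 79.0, 73.3 and 98.0 FPKM after lyophilization. The lower set was SNORD58C and SNORA1, the latter with 23.2, 25.1 and 27.8 FPKM against 6.07, 18.8 and 22.6 FPKM. SNORA1 had 1 to 4 reads in a sample. By class, 4 of 10 Cajal body genes were in the higher set and 0 in the lower set, 4 and 1 of 39 H/ACA genes, and 0 and 1 of 16 box C/D genes.

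A host gene was found for 62 of the 67 genes. By symbol, 14 of the 45 hosts are ribosomal protein genes and hold 18 of the detected genes. These count the pseudogene symbol RPL21P28, host of SNORA27, which lies in an annotated exon of RPL21. SNHG symbols and GAS5 hold 10, without SCARNA16, whose host record LINC00338 lies where the annotated exon is named SNHG20. Of the genes without a host, SNORA76, SCARNA17 and SNORD116-18 lie over exons of SNHG25, SNHG22 and SNHG14. TAF1D, a subunit of the factor that recruits RNA polymerase I, holds 6, and the translation initiation factor genes EIF4A1 and EIF4A2 hold 3 each. The host had the higher mean FPKM in the controls for 43 of the 62. Without the block 0 of the 45 hosts passed the threshold in limma and 4 had an unadjusted p below 0.05, and with the block 11 were higher and 1 was lower. Over all symbols tested, 14% had an unadjusted p below 0.05, and 6.34% were higher and 10.2% lower with the block. The median difference of the hosts was 0.13, and none of the 10 genes past the threshold with the block had a host past it in the same direction.

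The 6 genes in TAF1D illustrate how genes of 1 host differed. TAF1D had 36.4, 37.0 and 31.7 FPKM in the controls and 49.9, 40.7 and 46.1 FPKM after lyophilization, a log2 difference of 0.38 ± 0.09 (SE, block; adjusted p = 0.0464, limma). SNORA32 differed by 1.22 ± 0.49, SNORA25 by 1.09 ± 0.69, SNORA40 by 0.39 ± 0.38, SNORA8 by -0.03 ± 0.30, SNORA18 by -0.08 ± 0.33 and SNORA1 by -0.88 ± 0.46 (SE, without the block). By limma 0 of the 6 passed in either fit, and SNORA32 was the only one with an unadjusted p below 0.05 without the block. Both signs occurred among genes of the same host, and the SE was larger than the difference for SNORA8 and SNORA18 and smaller for the other 4.

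GAS5 and its snoRNAs differed in where pair 1 stood. GAS5 had 251, 138 and 154 FPKM in controls 1 to 3 and 249, 159 and 168 FPKM in their lyophilized partners, highest in pair 1, while SNORD47 and SNORD76 were lowest in pair 1. SNHG1, host of SNORD22, had 88.7, 113 and 108 FPKM against 89.7, 117 and 105 FPKM, a log2 difference of 0.01 ± 0.04 (SE, block). The difference of -0.29 in SNORD22 was not seen in its host. Over the 60 genes tested that have a host, 31 had a larger difference than the host, and over the 62 with a host the signs were the same in 34.

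**Figure D5:**
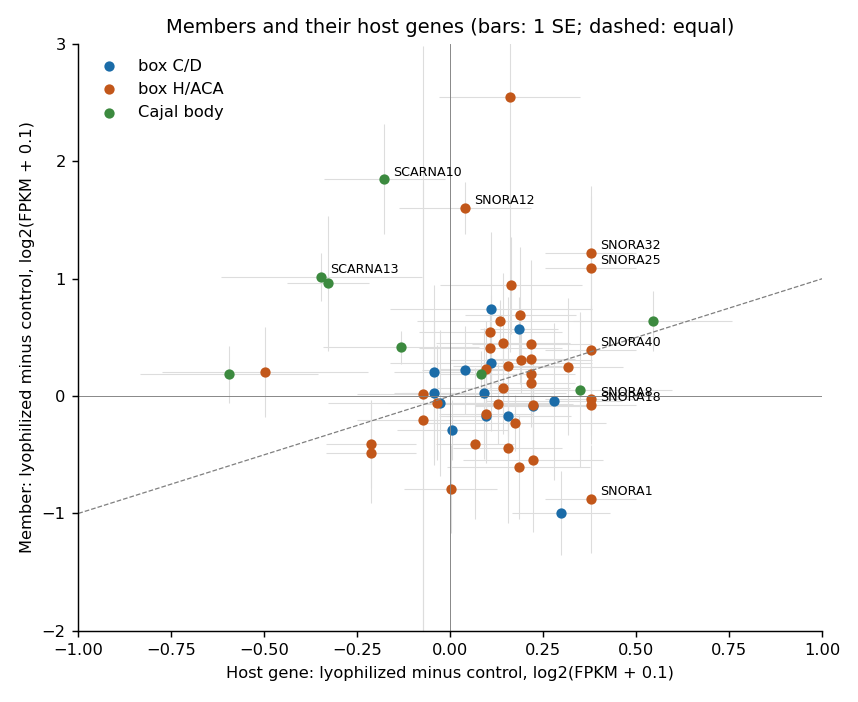
Log2 difference, lyophilized minus control on the log2(FPKM + 0.1) scale, of 60 tested genes (y) against that of the host gene (x), coloured by class, with bars of 1 SE and a dashed line where both are equal. The 6 genes of TAF1D share an x value of 0.38 and spread from -0.88 to 1.22, and SNORA12, SCARNA10 and SCARNA13 lie far above the line.

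The proteins that bind and assemble these RNAs showed no call without the block. Fibrillarin (FBL), the methyltransferase of the box C/D particle, had 326, 291 and 300 FPKM in the controls and 297, 310 and 294 FPKM after lyophilization, a log2 difference of -0.02. NOP58 and NOP56, its scaffold proteins, differed by 0.34 and -0.09, and NHP2L1, which binds the kink of the RNA, by 0.06. Dyskerin (DKC1), the pseudouridine synthase of the H/ACA particle, had 31.6, 50.0 and 42.8 FPKM against 35.9, 53.0 and 45.9 FPKM, a difference of 0.12, and its partners GAR1, NHP2 and NOP10 differed by 0.16, 0.06 and 0.14.

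Of all 28 protein genes on the 5 lists (core proteins of both particles, assembly factors, end processing and cap, Cajal body and trafficking), 23 had a difference above 0, against 56.4% of all symbols, with a median of 0.13 against 0.04. By limma 0 passed without the block, and DIS3, a catalytic subunit of the RNA exosome, was the only one at an unadjusted p below 0.05, against 14% of all symbols. With the block, against 6.34% of all symbols higher, 1 rose, the assembly factor RPAP3, which had 5.02, 9.96 and 6.55 FPKM in the controls and 7.39, 11.2 and 9.32 FPKM after lyophilization.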

How the data were processed

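The authors sequenced poly(A)-selected libraries of 3 control and 3 lyophilized samples with 75-base single-end reads, mapped them to hg19 with TopHat 2.0.7, kept reads with a single genomic position, and deposited FPKM values from Cufflinks, 1 table per sample. For Cufflinks, version and annotation are not given in the sources used here. The members, gene lists and alternatives were chosen with earlier results of these data known.

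Each symbol was reduced to its record with the highest mean FPKM. Log2(FPKM + 0.1) of the 11430 symbols whose mean FPKM exceeded 1 in either group was compared with limma 3.58.1 in R 4.3.3, with a mean-variance trend, the condition only and Benjamini-Hochberg adjustment over all symbols, at 0.05. Unlike the study's own test, snoRNAs and scaRNAs were kept in. A further fit had the pair as a block, since the labels pair the samples by number; deviations from the group mean of paired samples correlated by 0.26, 0.16 and 0.00 over all symbols in pairs 1 to 3 and by -0.16, 0.31 and 0.01 over the 65 members. Some members had values near 0, such as SNORA17 with 34.9 FPKM in control 1 and 1.83e-12 FPKM in lyophilized sample 1. The weight of such genes in the correlations over the members was not tested. The labels do not say whether the samples of a group were separate cultures, so that p-values measure the spread between these samples. The fit was tested on simulated data.

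Numbers of reads were recovered, after the data were seen, by dividing FPKM values by the value of 1 read for a gene of that length, with fragments of mean 200 and SD 80 bases. The implied depth depends on that fragment model. Its shortest fragment, fitted to the values, was 35 bases in control 1 and 34 bases in the other samples. Whether reads shorter than 75 bases entered the values was not tested. Counting errors use these reads, which without molecular identifiers are not independent molecules, and cover counting error only. Host genes, strand and position in transcripts come from the deposited loci and GENCODE v44 lifted to GRCh37, and sequences from the GRCh37 genome. Strand was taken from a matching small RNA gene for 49 genes and from the overlapping host for 18. A host is the shortest longer gene record around a gene, or else the gene whose annotated exon holds it; the name of 1 host is not reported here. Every member was described by its class. The named genes are those past the threshold with or without the block, the 5 highest by FPKM in each class, those with groups that do not overlap, and the genes of role groups; SNORA64, SNORA24 and genes sharing TAF1D were added after their values were seen. The alternatives cover the pseudocount, filters, scaling, variance trend, block, records, denominators and each sample left out. Python 3.11.15, numpy 2.4.6 and pandas 2.3.3 were used.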

Additional observations from a re-analysis of the deposited data

How the results depend on the processing

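The number of the 65 genes past an adjusted p of 0.05 was 1 without the block. It was 0 with a pseudocount of 1, without a filter on level, with quantile normalization and without a variance trend, and 1 in the other unblocked settings with all samples. SNORA12 lay close to the threshold, with an adjusted p of 0.0556 with a pseudocount of 1 and 0.0516 with quantile normalization. It was 0 when any 1 sample was left out (range 0 to 0), 0 when any 1 pair was left out and 0 among genes with 5 or more reads in every sample, the last 2 being chosen after seeing the data. With the replicate block it was 10, with the block and median-of-ratios scaling 11, and with the block and no variance trend 2. The share of all symbols past the threshold was not counted in the last 2 of these settings. The cause of these changes in number was not tested.

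The median log2 difference ranged, with 1 sample left out, from -0.27 to 0.48 for box C/D, from -0.039 to 0.39 for H/ACA and from 0.32 to 0.54 for Cajal body genes. Without pair 3 the medians were -0.27, 0.12 and 0.65, and among genes with 5 or more reads in every sample the H/ACA median was 0.068 and the Cajal body median 0.184, which it also was among genes with whole reads in all samples. Other settings moved the class medians by less than the SD of the pair medians. Scaling moved the median of all symbols from 0.04 to 0.02.

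Without the highest gene of each class the Cajal body share of summed FPKM was 0.0436% for controls and 0.0576% after lyophilization. With FPKM multiplied by locus length the shares were 0.00255% and 0.00247% for box C/D, 0.00352% and 0.00368% for H/ACA and 0.00069% and 0.000916% for Cajal body genes. With FPKM above 0 in at least 1 sample, 72, 91 and 23 genes were detected.

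Among the single genes named, 10 values changed sign with 1 sample left out, and 0 of these genes was past the threshold. The ranges were -0.025 to 0.29 for SCARNA12, -0.040 to 0.44 for SCARNA16, -0.049 to 0.69 for SNORA40, -0.61 to 0.13 for SNORA67, -0.30 to 0.33 for SNORA70, -0.53 to 0.54 for SNORD45A and -0.34 to 0.76 for SNORD76. Over the 61 genes with whole reads the median was 8 reads in a sample, and their counting error limits the precision of the differences.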
